A study of Mus musculus with 2 samples.

Results

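The 9 genes of creatine synthesis and of small-molecule methylation described here are Gatm, Gamt, Gnmt, Nnmt, Pemt, Pnmt, Hnmt, Slc6a8 and Ckb, out of 18193 named genes on the array. They were chosen by symbol, and every probe set annotated to one of them was taken, which gave 12 probe sets, none of them shared with another symbol. RNA came from the pancreas of male C57BL/6J mice aged 10 weeks, an inbred laboratory strain. The control group descended from mothers on control diet during pregnancy. The methionine-deficient group descended from mothers whose diet in pregnancy was methionine-deficient, and both groups received control diet from weaning at 3 weeks. Each group was measured as a single pool of RNA on a single array, and how many mice went into a pool is not given in the sources used here. With n = 1 per group no test was possible, and the spread between mice or between arrays is unknown.

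Methionine is turned into S-adenosylmethionine, the methyl donor of nearly all methylation reactions, and what is left after a transfer is S-adenosylhomocysteine. Creatine is made in a pair of steps: arginine:glycine amidinotransferase (Gatm) makes guanidinoacetate, and guanidinoacetate methyltransferase (Gamt) methylates it to creatine, a reaction counted among the main consumers of methyl groups in mammals. Glycine N-methyltransferase (Gnmt) methylates glycine to sarcosine and thereby disposes of surplus S-adenosylmethionine, and the exocrine pancreas is known as one of its main sites besides the liver. The other methyltransferases act on nicotinamide (Nnmt), phosphatidylethanolamine (Pemt), noradrenaline (Pnmt) and histamine (Hnmt).

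Gatm, Gamt and Gnmt were among the brightest genes of the pancreas in both pools and differed little between them, while the other 6 genes gave mid-range signals with larger and less certain differences. Values are deposited intensities, in arbitrary units, of 1 probe set, and a gene is represented by its brightest probe set. Differences are methionine-deficient minus control on the log2(intensity + 1) scale. The error given with each is the probe-set spread, a robust SD of the log2 difference of 1 probe set. This spread, estimated from pairs of probe sets of the same gene at like level, covers probe noise only. It was 0.78 in the dimmest of 5 level bins and 0.18 in the brightest. All 9 genes passed the level filter, which required a mean level at or above the array median, an intensity of 150. This holds for 11848 genes, called the tested genes below. The brightest probe sets of all 9 genes were higher in the methionine-deficient pool as deposited, and those of 6 of 9 when centred on the poly-A controls, transcripts of bacterial origin that read the labelling steps. Of tested genes 50% were higher as deposited. Centred on the poly-A controls, the tested genes had a median of -0.18, so fewer than 50% of them were higher. The 9 genes had a median of 0.46, against -7.7e-06 over the tested genes. At least 2-fold higher was 1 of the 9, against 3.87% of tested genes, and 0 were at least 2-fold lower, against 2.8%. At the 1.5-fold size the higher ones were 4, Pnmt, Hnmt, Nnmt and Slc6a8, against 10.4% of tested genes.

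**Figure D1:**
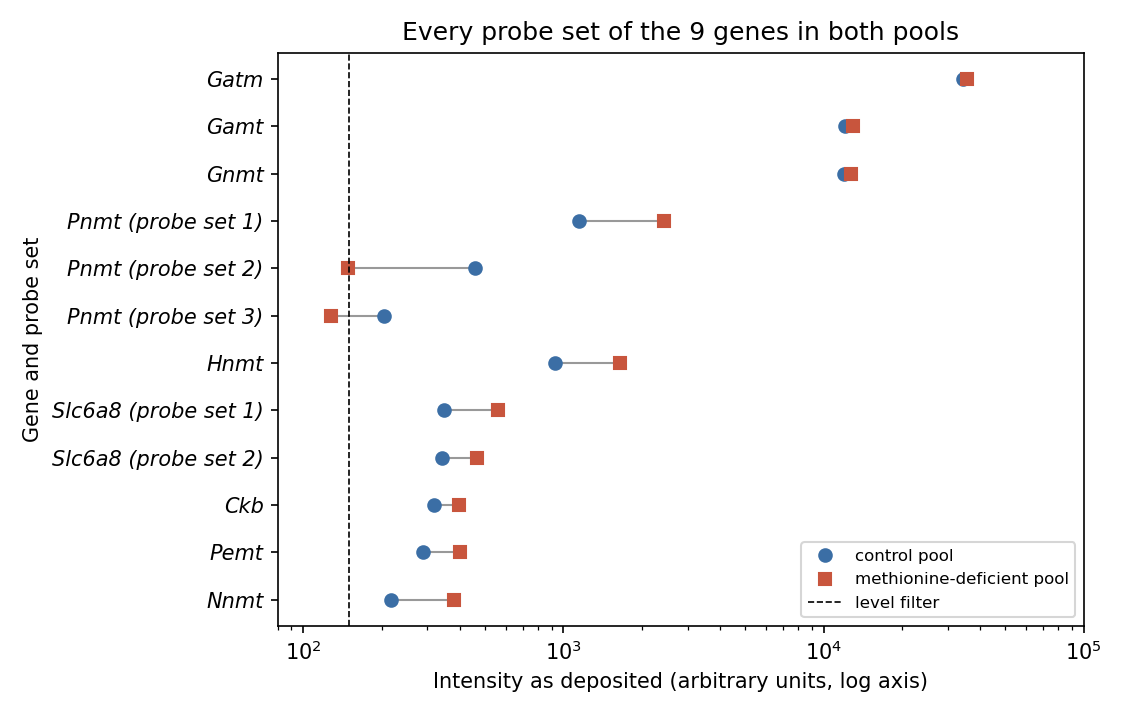
Intensity as deposited (log axis, arbitrary units) of each of the 12 probe sets of the 9 genes in the control pool (circles) and the methionine-deficient pool (squares), genes ordered by level and probe sets of a gene numbered by level, with the level filter of 150 dashed. Gatm, Gamt and Gnmt lie at 11994 and above with their paired points almost on top of each other, and the 3 probe sets of Pnmt go in different directions.

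Gatm, which carries out the first and rate-controlling step of creatine synthesis, was the brightest of the 9 genes. Its intensity was 34268 (control) and 35586 (methionine-deficient). The pools thus differed by 1.04-fold, a log2 difference of 0.05 beside a probe-set spread of 0.18. On the control array 99.4% of probe sets were dimmer. The highest intensity on the control array was 263446. Whether differences at the level of Gatm were compressed was not tested.

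Gamt, the methylating enzyme of the pathway, had an intensity of 12130 (control) and 13012 (methionine-deficient). The log2 difference of 0.10 was also smaller than the probe-set spread of 0.18. Gnmt had 11994 (control) and 12721 (methionine-deficient), a log2 difference of 0.08 with the same spread. All 3 bright genes were thus slightly higher in the methionine-deficient pool, by less than probe noise, and each rests on 1 probe set. The direction turns with scaling: centred on the poly-A controls, the log2 differences were -0.13 for Gatm, -0.08 for Gamt and -0.10 for Gnmt. Gnmt and Gamt are also abundant in liver. Of 7 liver genes with a probe set 3 passed the level filter and all 3 were lower in the methionine-deficient pool, the albumin gene Alb being at 279 and 193. The brightest of the list was the transthyretin gene Ttr, which islet cells also make, at 13714 (control) and 11572 (methionine-deficient). The summed intensity of these liver genes was 14453 (control) and 12280 (methionine-deficient), most of it from Ttr. Under the filter, Tat, Apoa1 and Fgb were higher in the methionine-deficient pool and Ahsg was lower. No liver gene was at 0, but neither was any probe set: the lowest intensities were 0.685 (control) and 0.669 (methionine-deficient). The same holds for the marker lists below, so it does not show that a gene was detected.

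The promoters of these 3 genes are shown because the genes share a high signal that hardly differed between the pools, and the sequences let their start regions be compared. Each run is the strand of the gene, 5′ to 3′, from RefSeq on build GRCm38.p6, and ends just before the start of the promoter entry. The annotated Gnmt gene begins upstream of that start, so the Gnmt run was shortened and its last base lies 17 bases before the start. The end of the run, with its TATA core, still lies inside the annotated gene. Capitals mark the CCAAT box (CCAAT), the GC box (CCGCCC), the E-box (CANNTG) and the TATA core (TATAA), searched on both strands, and where matches overlap the capitals run together. The intervals are chr2:122611278-122611527 for Gatm, chr10:80261013-80261262 for Gamt and chr17:46729182-46729415 for Gnmt, all on the minus strand.
Gatm: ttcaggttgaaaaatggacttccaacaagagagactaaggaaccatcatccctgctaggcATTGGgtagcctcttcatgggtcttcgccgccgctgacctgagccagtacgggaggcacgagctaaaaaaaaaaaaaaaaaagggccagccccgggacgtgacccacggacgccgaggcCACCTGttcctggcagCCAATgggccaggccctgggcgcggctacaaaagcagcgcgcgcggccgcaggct
Gamt: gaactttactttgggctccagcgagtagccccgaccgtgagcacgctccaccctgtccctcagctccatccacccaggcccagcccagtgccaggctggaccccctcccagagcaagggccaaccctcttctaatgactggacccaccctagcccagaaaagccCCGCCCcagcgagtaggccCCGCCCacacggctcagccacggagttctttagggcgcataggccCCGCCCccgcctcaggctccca
Gnmt: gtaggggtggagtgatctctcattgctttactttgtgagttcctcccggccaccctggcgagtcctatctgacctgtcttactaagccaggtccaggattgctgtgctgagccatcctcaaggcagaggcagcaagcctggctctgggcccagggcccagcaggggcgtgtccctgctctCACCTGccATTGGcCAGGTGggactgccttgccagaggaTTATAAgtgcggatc

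The start regions were unlike each other. In the 250 bases before the start, Gatm had 2 CCAAT boxes, the nearer beginning 55 bases before the start, and 1 E-box, but no match to the TATA core or the GC box. Gamt had 3 GC boxes and no match to the other 3 motifs. Gnmt had a TATA core beginning 30 bases before the start, read on both strands with an overlap, 1 CCAAT box and 2 E-boxes. That TATA core lies inside the annotated Gnmt gene, which begins upstream of the start used here. Over 32851 promoters of the same length, the TATA core was found in 22.8%, the CCAAT box in 33.8%, the GC box in 32.7% and the E-box in 66.2%. A match describes these letters and is not evidence of a bound factor. Of the 9 genes, 6 were matched to a promoter entry.

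Slc6a8, the creatine transporter that brings creatine into cells, was dimmer by far. Its brighter probe set read 348 (control) and 561 (methionine-deficient), a log2 difference of 0.69 beside a spread of 0.41. The other probe set read 342 and 464, a log2 difference of 0.44 with the same spread. Both probe sets were higher in the methionine-deficient pool, but they are annotated to the same target sequence and are not separate evidence of it. In its level bin 9.78% of genes were at least 1.5-fold higher.

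Ckb, the brain-type creatine kinase that passes phosphate between creatine and ADP, had 317 (control) and 397 (methionine-deficient). Its log2 difference of 0.32 was smaller than its probe-set spread of 0.59. Of the 7 genes fixed as the creatine synthesis, transport and kinase list, 6 passed the filter, 5 higher and 1 lower (2 and 4 when centred on the poly-A controls). None reached 2-fold, and the median was 0.13. Of the other creatine kinases, the mitochondrial Ckmt1 had a log2 difference of 0.16 (spread 0.41). The muscle form Ckm had -0.65 (spread 0.59) from its brightest probe set and 0.87 (spread 0.78) from its second, so its probe sets disagree in direction. Ckmt2 did not pass the filter.

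Pnmt makes adrenaline from noradrenaline and is known from the adrenal medulla rather than the pancreas. It was the gene counted at 2-fold, and its 3 probe sets disagreed. The brightest read 1150 (control) and 2445 (methionine-deficient), which is 2.13-fold higher, a log2 difference of 1.09 with a spread of 0.18. In that level bin 0.251% of genes were at least 2-fold higher. The bin is wide, from 1522 to 249322, and this probe set lies near its lower edge, at a mean intensity of 1677. In the next bin down the spread was 0.28, and 0.728% of genes were at least 2-fold higher. The second Pnmt probe set read 458 and 148, which is 3.08-fold lower, a log2 difference of -1.62 with a spread of 0.59. The dimmest read 204 and 128, a log2 difference of -0.67 with a spread of 0.78. Thus 1 probe set was higher and 2 were lower in the methionine-deficient pool, and the mean over them was -0.40, so the direction for Pnmt is not settled. The dimmest is the probe set whose annotation lists a RefSeq transcript, while for the other 2 no such transcript is listed. Of 1901 genes that had 3 or more probe sets past the filter, 18 (0.947%) had some at least 2-fold higher and others at least 2-fold lower.

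Genes of chromaffin and sympathetic cells, which make the substrate of Pnmt, were dim. Of 4 of them with a probe set 1 passed the filter, and their summed intensity was 743 (control) and 486 (methionine-deficient). Dbh, which makes noradrenaline, was the one that passed, at 252 and 384 (log2 difference 0.61, spread 0.59), but its second probe set was at 244 and 67.6 (-1.84). With the mean over probe sets the median of the list turned from 0.61 to -0.44. Th, the first enzyme of the route, was at 243 and 62.6, and the vesicle transporter Slc18a1 at 211 and 9.49, both named after their values were seen. The other Slc18a1 probe sets were at 10.5 and 110 and at 26.8 and 5.26, so its probe sets disagree in direction. None of the listed genes was at 0, but neither was any probe set on the arrays. The part of such cells in the Pnmt signals was not tested, and in bulk RNA fewer cells of a type cannot be told apart from less RNA per cell.

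Hnmt methylates histamine inside cells and so ends its action. It read 926 (control) and 1649 (methionine-deficient). This is 1.78-fold higher, a log2 difference of 0.83 with a spread of 0.28. Of the 9 genes, among those with 1 probe set, Hnmt had the largest difference relative to its spread. In its level bin 3.75% of genes were at least 1.5-fold higher. Macrophage markers were higher in 4 of 6 cases (3 of 6 under each of the 4 other scalings). Their summed intensity was 5609 (control) and 7237 (methionine-deficient). Their brightest, the receptor gene Csf1r, had -0.10 (spread 0.18) from its brightest probe set and 0.10 and 0.13 (spread 0.28) from the others, and the complement gene C1qa had 1.01 (spread 0.18). Of 6 mast cell markers 2 passed the filter. Kit was at 0.18 (spread 0.28), though -0.21 (spread 0.78) in its second probe set, and Cma1 at 0.69 (spread 0.78). The summed intensity of the list was 1336 (control) and 1339 (methionine-deficient). The part of macrophages and mast cells in the Hnmt value was not tested.

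Of the 13 genes fixed for histamine and catecholamine handling 7 passed the filter, 4 higher and 3 lower, and the median was 0.54. Hnmt and Pnmt hold up that median: the other 5 genes had a median of -0.39, with 2 higher and 3 lower. Maoa, a monoamine oxidase, had 0.54 (spread 0.28) and 1.17 (spread 0.78) in its probe sets. Aoc1, the diamine oxidase that degrades histamine outside cells, had -0.68 (spread 0.78). Averaging over probe sets turned the median of the list to -0.39, and its direction is not settled.

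Nnmt, which methylates nicotinamide and is known from liver and fat, was the dimmest of the 9 genes. It read 217 (control) and 380 (methionine-deficient), 1.75-fold higher, a log2 difference of 0.81 with a spread of 0.59. At that level 16.5% of genes were at least 1.5-fold higher, so a difference of this size was common there. Of 5 adipocyte markers past the filter 3 were lower (4 of 5 when centred on the poly-A controls), while 50% of tested genes were higher. Their median was -0.20, but 0.07 with the mean over probe sets, so the list has no settled direction. Their summed intensity was 17322 (control) and 15196 (methionine-deficient). The brightest, the fatty acid carrier gene Fabp4, had -0.21 (spread 0.18) from its brightest probe set but 0.82 (spread 0.18) from its second, at 3855 and 6807. The lipid droplet gene Cidec had -1.59 (spread 0.59). Fibroblast and stellate markers were higher in 6 of 8 cases (3 of 8 when centred on the poly-A controls), with sums of 25313 and 25281. Among them Dcn, a matrix proteoglycan and the brightest, had -0.15 (spread 0.18). The receptor gene Pdgfra, with the largest difference, had -1.08 (spread 0.41). These are the 2 lower genes of the list. The other Pdgfra probe sets lay under the filter and were higher, at 42.6 and 193 and at 34.4 and 40.2. No marker of either list was at 0, but neither was any probe set on the arrays. The part of these markers in the Nnmt value was not tested.

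Among the 13 genes of nicotinamide and NAD metabolism 9 passed the filter, 6 higher and 3 lower (4 and 5 when centred on the poly-A controls). The median was 0.09, and 0.08 without Nnmt. Naprt, which starts the route from nicotinic acid to NAD, was at 515 (control) and 1077 (methionine-deficient), a log2 difference of 1.06 (spread 0.28). It was the list's gene at 2-fold. Sirt1, an NAD-consuming deacetylase, had 0.44 (spread 0.41) and Nadsyn1, the NAD synthetase, had 0.20 (spread 0.59).

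Pemt, which methylates phosphatidylethanolamine to phosphatidylcholine and is mainly known as a liver enzyme, read 290 (control) and 400 (methionine-deficient). The log2 difference of 0.46 was below its spread of 0.59. Of the 17 genes fixed for phosphatidylcholine and choline 15 passed the filter, 6 higher and 9 lower, none by 2-fold, and the median was -0.04. Pcyt1a, the control point of the route from choline that needs no methylation, had -0.74 (spread 0.59) from its brightest probe set and 0.50 (spread 0.59) from its second. The choline transporter gene Slc44a1 had 0.40 (spread 0.28) from its brightest probe set and -0.58 (spread 0.41) from its second, so neither gene has a settled direction. Sardh, which breaks down the sarcosine that Gnmt makes, was at 3055 and 2423, a log2 difference of -0.33 (spread 0.18).

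**Figure D2:**
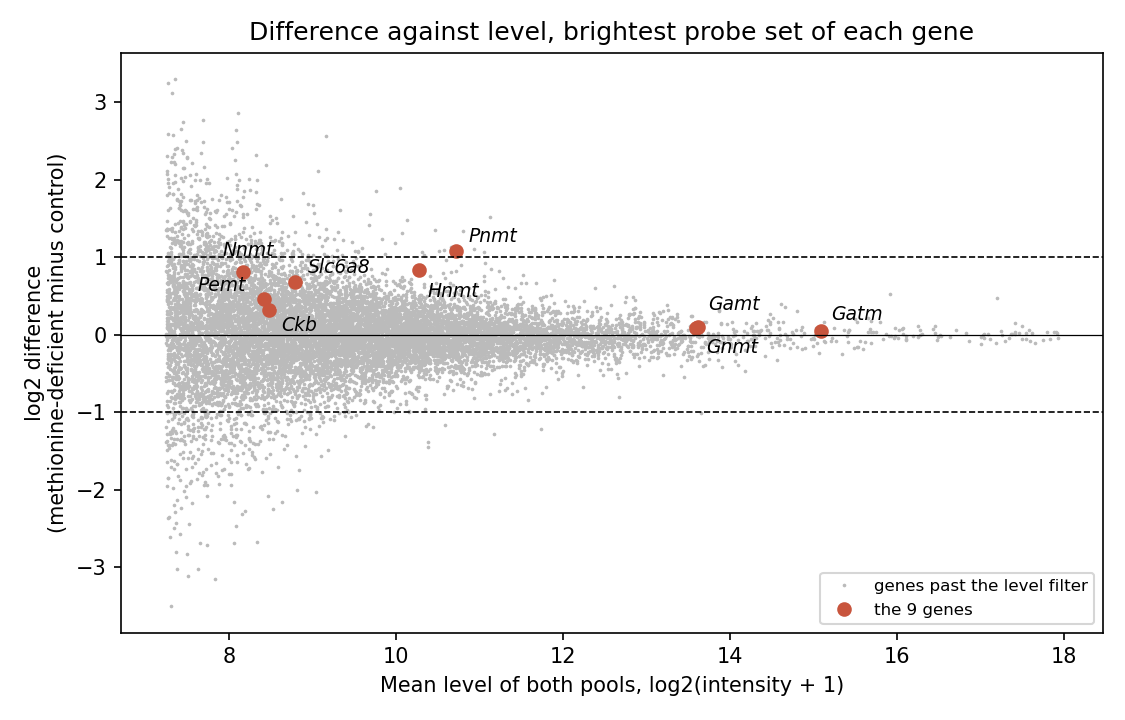
Log2 difference (methionine-deficient minus control) against mean level, log2(intensity + 1), for the brightest probe set of each of 11848 genes past the filter (grey) and the 9 genes (red), with 2-fold lines dashed. The cloud narrows with level, and Pnmt at 1.09 and Hnmt at 0.83 lie at its upper edge while Gatm, Gamt and Gnmt lie near 0.

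As users of methyl groups, the genes were ordered by array signal. Probe sets differ in affinity, so this order is one of signal and not of RNA molecules. The brightest and the second probe set of a gene differed by a median of 0.78 on the log2 scale over 4819 genes, and by 2.26 at the 90th percentile. Gamt and Gnmt led the methyltransferases, each brighter than 97.8% of tested genes, and their pools overlapped in intensity, so they had no order between them. Pnmt followed, brighter than 78.5%, and Hnmt, brighter than 71.4%, and their pools overlapped too. Pemt was brighter than 29.3% and Nnmt than 22.9% of tested genes, again with overlapping pools. The gap in level between Gnmt and Pnmt was 2.88 on the log2 scale, wider than the gap between probe sets of 1 gene in at least 90% of genes. The gap between Hnmt and Slc6a8 was 1.48, which is within that range. Outside the methyltransferases, Gatm was brighter than 99.2%, Slc6a8 than 39.0% and Ckb than 30.6% of tested genes. Taking the mean over the probe sets, Pnmt came after Hnmt and Slc6a8, brighter than 48.6% of the genes then past the filter.

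The other small-molecule methyltransferases lay below Gamt and Gnmt. Of the 18 genes on that list 13 passed the filter, 11 higher and 2 lower (8 and 5 when centred on the poly-A controls). Pnmt was the one at 2-fold, and the median was 0.20. Without the genes described above, 7 remained, 5 higher and 2 lower, with a median of 0.20. Tpmt, which methylates thiopurine drugs, had 0.59 (spread 0.78) and Coq5, an enzyme of ubiquinone synthesis, had 0.26 (spread 0.28) from its brightest and -0.52 (spread 0.78) from its second probe set. Bhmt, which returns a methyl group to homocysteine, had -0.22 (spread 0.59). Carnmt1, the carnosine methyltransferase, was the brightest of the 7 at 5520 (control) and 5046 (methionine-deficient), and was named after its values were seen. Its probe sets had -0.13 (spread 0.18) and 0.14 (spread 0.28).

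Of the 8 genes past the filter that supply and clear the methyl donor, 6 lay in the brightest level bin, while Mtr (290 and 291) and Mtrr (285 and 394) were dim, Mtr being named after its values were seen. By direction 7 were higher and 1 lower, but 4 and 4 with each array centred on its median, and 2 and 6 when centred on the poly-A controls. The median was 0.06. Mtrr, which keeps methionine synthase active, had 0.47 (spread 0.59). Ahcyl2 had 0.20 (spread 0.18) from its brightest probe set, and -0.77 (spread 0.41) and 0.68 (spread 0.59) from the others. Ahcyl1 had -0.12 (spread 0.18) from its brightest, and 0.04 (spread 0.18) and 0.46 (spread 0.28) from the others. Ahcy, which splits S-adenosylhomocysteine, was at 20517 and 21189, a log2 difference of 0.05, much like Gatm, and was named after its values were seen. Of the 11 genes that supply the arginine and glycine for creatine 10 passed, 5 higher and 5 lower, and the median was -0.01. Shmt1, which interconverts serine and glycine, had 0.59 (spread 0.78). Slc7a2, a cationic amino acid transporter, had 0.55 (spread 0.18) from its brightest probe set but -0.14 (spread 0.59) from another. Slc7a7, of the same transport family, had 0.41 (spread 0.59) from its brightest and 2.7e-04 (spread 0.59) from its second probe set.

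**Figure D3:**
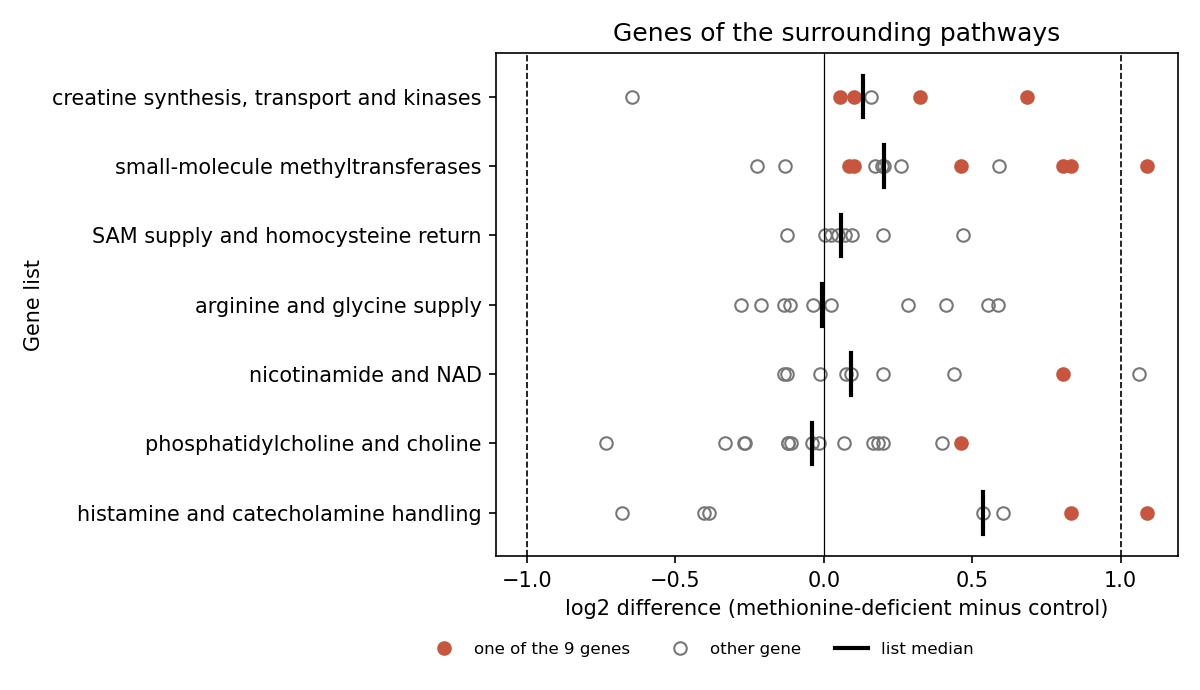
Log2 difference of each gene past the filter in the 7 pathway lists, with the 9 genes filled, the others open and each list's median as a bar. Most open points lie within 0.5 of 0, and Naprt at 1.06 is the open point past the 2-fold line.

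Facts that bear on all of these values are few. Both arrays had the same trimmed mean intensity of 500.003, and their medians were 165 and 171. Acinar markers were the brightest, with Prss2 at 242235 (control) and 248933 (methionine-deficient), and the median over their 8 tested genes was -0.02, with the acinar regulator Bhlha15 at 0.16 (spread 0.18) in its brightest and -0.29 (spread 0.18) in its second probe set. The 10 islet genes had a median of -0.03, with Ins2 at 93733 and 93461 and Slc2a2 at -0.52 (spread 0.41). The 5 tested duct genes had a median of 0.19, with Krt18 at -0.28 (spread 0.18) and Krt7 at 0.74 (spread 0.59). Muscle-type cells had Acta2 at -0.18 (spread 0.18) and Des at 0.92 (spread 0.59), and 1 of 4 was higher. Nerve and Schwann cells had Sox10 at 0.17 (spread 0.41) and Ngfr at 1.76 (spread 0.78), and 3 of 4 were higher, or 2 of 4 when centred on the poly-A controls. The ratio of 3′ to 5′ control signal, a sign of RNA quality, was 1.46 and 1.76 for Actb and 0.973 and 1.11 for Gapdh in the control and methionine-deficient pools. The part of RNA quality in the differences was not tested.

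**Figure D4:**
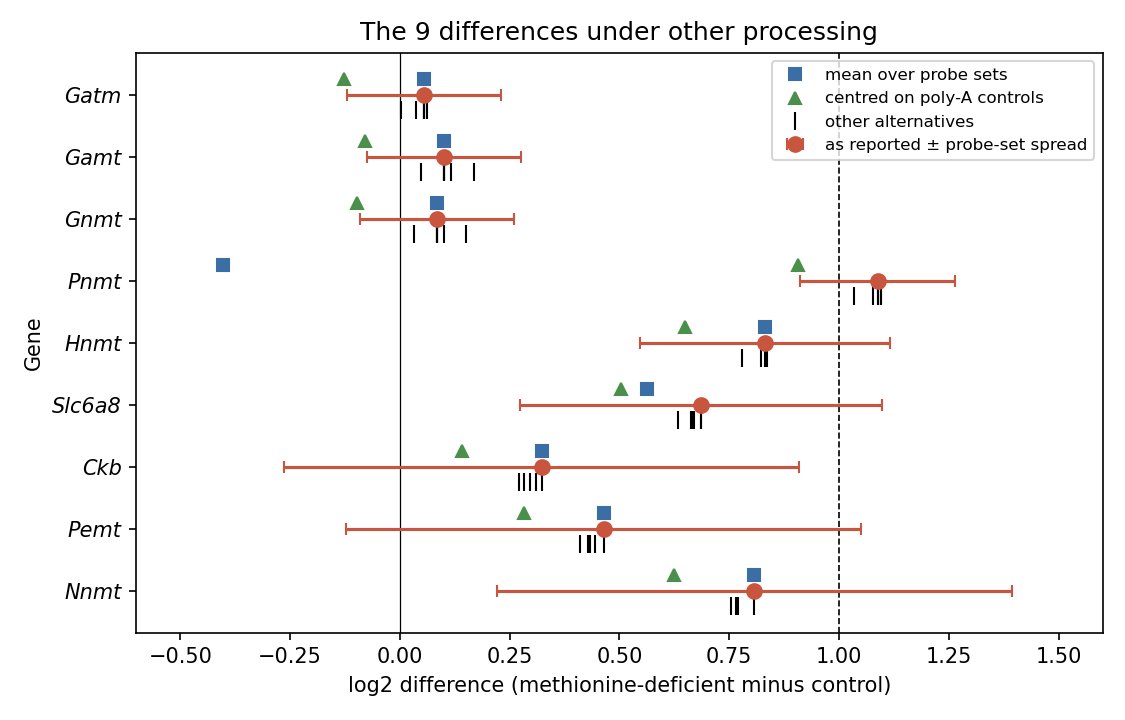
Log2 difference of the 9 genes as reported (red, bar = probe-set spread), as the mean over probe sets (squares), centred on poly-A controls (triangles) and under the other alternatives (ticks). Pnmt moves to -0.40 with the mean over probe sets, and Gatm, Gamt and Gnmt cross 0 when centred on the poly-A controls.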

How the data were processed

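Both pools were measured on Affymetrix 3′ expression arrays of 45101 probe sets each, prepared with Trizol and biotin labelling, per the labels' protocols. The authors deposited linear intensities per probe set. How they corrected background and scaled the arrays is not given in the sources used here. Names came from the platform annotation, updated by gene identifier for 34741 probe sets. Of the probe sets, 64 were array controls, 34945 had 1 symbol, 932 several and 9160 were unnamed here.

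The scale was log2(value + 1), with no rescaling of the arrays. The brightest probe set stood for a gene, and genes with a mean level at or above the 50th percentile of probe sets were tested. A gene was counted at 2-fold, with no test. The spread came from pairs of neighbouring probe sets of 1 gene in 5 level bins. The counting was tested on simulated data. Arrays give no depth, and their number limits the precision. Genes named are all 9 members, the 3 largest differences of each pathway list, and the brightest gene and largest difference of each marker list. Members and lists were chosen with earlier results of these data known. Some genes on the lists were not analysed here. Alternatives were 3 other scalings, a pseudocount of 16, other level filters, folds and probe set rules. Python 3.11.15, numpy 2.4.6, pandas 2.3.3 and statsmodels 0.14.6 were used.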

Additional observations from a re-analysis of the deposited data

Results flagged for a closer look

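The poly-A controls of the arrays, outside the comparisons of genes, were brighter in the methionine-deficient pool. The median of their log2 differences was 0.18, and 23 of the 24 probe sets were higher, several of them reading 1 transcript. For the hybridization controls the median was -0.02, and 8 of the 18 were higher. The differences of Gatm, Gamt and Gnmt, at 0.05 to 0.10, are smaller than that of the poly-A controls.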

How the results depend on the processing

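No paired analysis was possible because each group is 1 pool on 1 array. Of 306 comparisons of a value with an alternative, 261 stayed within a margin. For the difference of a gene the margin was the probe-set spread, and for a list median that spread reduced for the number of genes. For a level it was 5 percentage points, and for a count a ratio of 1.5. Some of the 261 could not move: 7 of the 9 genes have 1 probe set, whose value the probe set rules leave as it is or drop. Using the mean over probe sets, 0 of the 9 genes were 2-fold higher and Pnmt turned to -0.40. The medians were then 0.32 for the 9 genes and 0.093 for small-molecule methyltransferases. They were -0.16 for phosphatidylcholine and choline and -0.39 for histamine and catecholamine handling. Without probe sets ending in _s_at, _x_at or _a_at, which drops Hnmt, Nnmt, Pemt and Ckb, the medians were 0.10 for the 9 genes and 0.075 for histamine and catecholamine handling, and with no level filter the latter was -0.057. A filter at the 75th percentile, which keeps fewer genes, gave 0.10 for the 9 genes. Of the 9 genes, counting at 1.5-fold gave 4 higher, at 3-fold 0, and requiring all probe sets to agree 0. Centring on poly-A controls, chosen after seeing the data, shifted the median of all tested genes by -0.18. With it, 0 of the 9 genes were 2-fold higher. The medians were then 0.28 for the 9 genes, 0.020 for small-molecule methyltransferases, -0.12 for donor supply and -0.19 for arginine and glycine. They were -0.091 for nicotinamide, -0.22 for phosphatidylcholine and 0.35 for histamine and catecholamine handling. Requiring agreement, leaving out Pnmt (median 0.39) and dropping only _s_at and _x_at probe sets were also chosen after seeing the data. The cause of the Pnmt disagreement was not tested.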

Other observations

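Bhmt2, a liver and kidney enzyme that gives a methyl group to homocysteine, did not pass the level filter and was singled out after its values were seen. Its brighter probe set was at 8.52 (control) and 117 (methionine-deficient), and the other at 3.39 and 57.5, log2 differences of 3.64 and 3.73. Both probe sets were higher, and all of these intensities lie below the filter of 150, where background can set the value. Among 6345 genes under the filter, a difference of 8-fold or more upward was seen in 5.99%.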
